A study of Homo sapiens with 10 samples.

Results

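The 10 genes described here encode transcription factors of the ETS family and were taken by name: ETS1, ETS2, ELK4, GABPA, ETV4, ETV5, ERF, ELF1, ELF2 and ERG. They are 10 of the 28 human ETS genes, and 10 of the 20098 protein-coding genes compared, those of the Y chromosome being left out. ZMYND8 is a chromatin reader whose PHD finger, bromodomain and PWWP domain bind modified histone tails and DNA, and ETS2 is one of the loci at which the study examined its occupancy. Occupancy was measured by ChIP-seq, in which DNA bound by a protein is recovered from crosslinked chromatin and sequenced, here after digestion with micrococcal nuclease, which leaves fragments of nucleosome size. HEK293, an established human embryonic kidney cell line, was used throughout, in its Flp-In T-REx form carrying 3×FLAG-tagged ZMYND8. The ZMYND8 ChIP used an antibody to the protein itself, and the labels of its 2 samples describe lines stably expressing either the full-length protein or the N228F mutant without saying which line was used. The FLAG-ZMYND8 ChIP used anti-FLAG on 2 samples in which 10 nM doxycycline induced overexpression of the full-length tagged protein, so that list reports an excess of the protein. The deposited data are 1 list of peaks for each of these targets, of 15086 ZMYND8 and 63690 FLAG-ZMYND8 peaks. The remaining 6 of the 10 samples, H3K14ac, H3K27ac and input DNA, were not analysed here. Neither list separates its replicates or holds read counts, so no spread between samples and no depth stand behind any value below, no difference between genes could be tested, and an absent peak means only that no site passed the authors' threshold. The score is 1 in every row, so the size of a peak is its width, which starts at 151 bp for ZMYND8 and 167 bp for FLAG-ZMYND8, and 53.0 and 54.7% of the peaks lie at that minimum. The lists hold no expression values, so the cell line could not be checked against marker genes.

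ETS proteins share a DNA-binding domain that recognises a short core, GGAA, and many of them are phosphorylated by the kinase ERK at the end of the RAS-RAF-MEK-ERK cascade. Most members activate transcription, whereas ERF represses it. Related members often form pairs that arose by duplication, among them ETS1 and ETS2, ETV4 and ETV5, and ELF1 and ELF2. The genes of each of these pairs lie on different chromosomes, whereas on chromosome 21 the ETS2 and ERG genes are neighbours.

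The stretches that carry the peaks at these genes are shown first, since the positions given below refer to them. They are reference sequence of GRCh37, the build of the lists (hg19), written 5′ to 3′ in the direction of the gene. Capitals mark the ETS core, as GGAA on the strand of the gene or as TTCC where the core lies on the opposite strand. Parts of peaks in untranslated exons are left out, except for a short site in GABPA given further on.

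The 151 bp ZMYND8 peak upstream of ETS2, which no FLAG-ZMYND8 peak overlapped (chr21:40175975-40176125, plus strand, between genes), is low in CpG:
ETS2, upstream peak: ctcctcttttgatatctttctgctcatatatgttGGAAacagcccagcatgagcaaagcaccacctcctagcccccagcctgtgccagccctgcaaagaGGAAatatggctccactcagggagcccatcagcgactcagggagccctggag

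The part of the ETS2 FLAG-ZMYND8 peak that lies outside untranslated exons (chr21:40177541-40177818, plus strand, intron) begins shortly downstream of the ZMYND8 peak and is rich in pyrimidines:
ETS2, downstream part of the FLAG-ZMYND8 peak: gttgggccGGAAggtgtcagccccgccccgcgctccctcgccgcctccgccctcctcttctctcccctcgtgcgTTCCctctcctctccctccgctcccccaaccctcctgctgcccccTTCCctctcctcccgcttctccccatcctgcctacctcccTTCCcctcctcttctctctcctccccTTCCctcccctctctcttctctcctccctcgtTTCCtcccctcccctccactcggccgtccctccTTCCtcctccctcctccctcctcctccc

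The ZMYND8 peaks of ERG, ETV5, ELF2 and ETV4 are shown to compare the other members that had peaks of both lists near a start. The ERG stretch is the central 300 bp of an intronic peak (chr21:40033203-40033502, minus strand), that of ETV5 is the whole intronic peak (chr3:185825891-185826089, minus strand), that of ELF2 is the whole peak upstream of the gene (chr4:140099271-140099474, minus strand), and that of ETV4 is an intronic part of the peak at its internal start (chr17:41623082-41623228, minus strand):
ERG: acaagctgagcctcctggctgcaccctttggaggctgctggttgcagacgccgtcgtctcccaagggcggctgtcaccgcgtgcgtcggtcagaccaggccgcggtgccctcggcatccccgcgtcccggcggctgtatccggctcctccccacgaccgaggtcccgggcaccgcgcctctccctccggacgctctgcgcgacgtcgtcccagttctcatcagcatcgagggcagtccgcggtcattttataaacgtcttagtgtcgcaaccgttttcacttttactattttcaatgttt
ETV5: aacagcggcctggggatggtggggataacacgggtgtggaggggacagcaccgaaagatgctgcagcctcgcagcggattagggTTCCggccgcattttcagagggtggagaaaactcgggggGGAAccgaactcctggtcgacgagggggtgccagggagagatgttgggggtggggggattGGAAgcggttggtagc
ELF2: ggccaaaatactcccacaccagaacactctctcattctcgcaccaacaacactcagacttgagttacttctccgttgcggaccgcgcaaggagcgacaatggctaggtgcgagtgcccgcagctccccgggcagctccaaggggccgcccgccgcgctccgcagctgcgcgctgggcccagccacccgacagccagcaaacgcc
ETV4: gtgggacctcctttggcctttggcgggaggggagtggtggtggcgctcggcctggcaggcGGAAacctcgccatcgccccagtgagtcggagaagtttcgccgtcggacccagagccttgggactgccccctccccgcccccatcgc

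The FLAG-ZMYND8 peak upstream of ELK4 (chr1:205601227-205601516, minus strand, outside the gene) stands for the members with FLAG-ZMYND8 alone:
ELK4: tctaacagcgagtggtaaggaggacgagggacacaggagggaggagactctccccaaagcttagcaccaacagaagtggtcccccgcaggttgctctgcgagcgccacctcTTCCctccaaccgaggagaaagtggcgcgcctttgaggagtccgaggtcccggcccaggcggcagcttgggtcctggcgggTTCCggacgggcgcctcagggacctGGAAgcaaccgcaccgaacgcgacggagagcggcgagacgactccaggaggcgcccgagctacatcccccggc

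Within 3 kb of the annotated 5′ end of the gene, taken as its TSS, 5 of the 10 genes had the midpoint of a ZMYND8 peak, namely ETS2, GABPA, ETV5, ELF2 and ERG. Of all protein-coding genes, 34.1% did. A FLAG-ZMYND8 midpoint was found at 7 of the 10, namely ETS2, ELK4, ETV5, ERF, ELF1, ELF2 and ERG, against a background of 58.1%. Both lists had one at 4 genes, ETS2, ETV5, ELF2 and ERG, against 29.4%. ETS1 and ETV4 had none in either list. With 10 genes, each of these counts lay within 2 genes of the number the background share gives, and nothing is read from the difference.

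**Figure D1:**
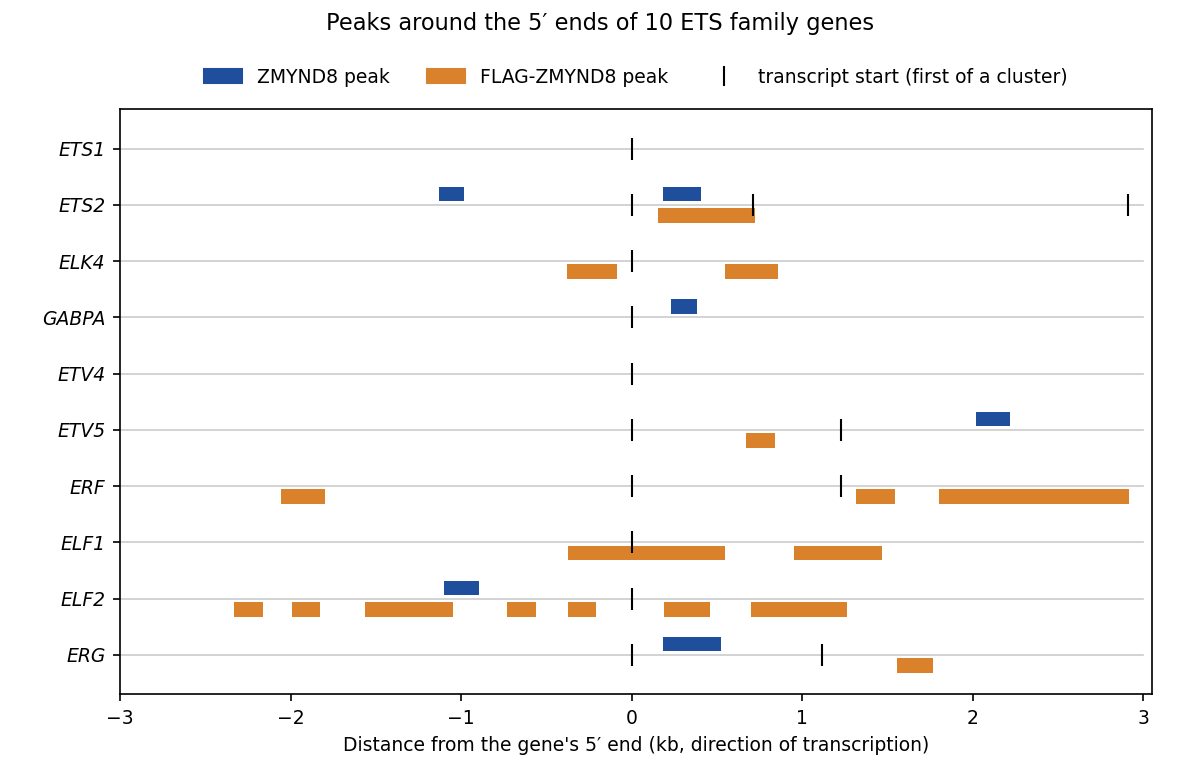
Peaks of each list with a midpoint within 3 kb of the 5′ end of each gene, drawn to scale along the direction of transcription (x axis, kb), ZMYND8 above and FLAG-ZMYND8 below each line, with the first start of each group of transcripts as a tick. In the ETS2 row the peaks of the lists lie over each other within 500 bp of the 5′ end, and the ETS1 and ETV4 rows are empty.

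ETS2, an activator whose regulatory domain is a target of ERK, occupies bases 40177107 to 40196879 of chromosome 21 on the plus strand and had 2 ZMYND8 peaks and 1 FLAG-ZMYND8 peak at its TSS. The ZMYND8 peak of 225 bp lay with its midpoint 296 bp downstream of the 5′ end, in an untranslated exon, and was contained whole in a FLAG-ZMYND8 peak of 570 bp whose midpoint lay 440 bp downstream, in an intron. The FLAG-ZMYND8 peak was wider than 93.5% of its list, and the ZMYND8 peak was wider than 66.0% of its own. The canonical transcript of ETS2 belongs to a group of 4 starts that begins 712 bp downstream of the 5′ end. The ZMYND8 peak ended before that group, whereas the FLAG-ZMYND8 peak reached its first start. The other ZMYND8 peak, the CpG-poor stretch printed first, held 1 CpG in 151 bp, against 22 CpGs in the 225 bp of the peak inside the gene.

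Peaks covered 376 bp of the 6 kb around the ETS2 TSS in the ZMYND8 list, more than at any other of the 10 genes. Of protein-coding genes, 87.5% had fewer covered bases. The ETS2 value includes the upstream peak of the minimum width, and its lead over ERG depended on the setting. ETS2 had 244 bp within 1 kb and 225 bp within 500 bp, against 343 and 320 bp at ERG. With only peaks wider than the minimum, ETS2 had 225 bp and ERG 343 bp. In the FLAG-ZMYND8 list peaks covered 570 bp at ETS2, the fifth highest value of the 10, and 74.0% of protein-coding genes had fewer. Among genes with a peak at the TSS, the median was 258 bp for ZMYND8 and 505 bp for FLAG-ZMYND8. When the window was narrowed to 500 bp, ETS2 alone of the 10 genes kept both lists, as did 14.5% of all protein-coding genes. The rest of the ETS2 gene held no peak of either list.

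Upstream of ETS2, the interval of 143402 bp that separates it from ERG held 2 ZMYND8 and 3 FLAG-ZMYND8 peaks. One of these ZMYND8 peaks was the one 1057 bp upstream of ETS2. The other, 193 bp wide and 17610 bp upstream of ETS2, lay inside a FLAG-ZMYND8 peak of 436 bp, so that a second shared site stood in front of the gene. The remaining FLAG-ZMYND8 peaks lay 10053 and 5994 bp upstream. All 5 peaks lay closer to ETS2 than to ERG.

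ERG, a factor of endothelial and blood stem cells, occupies bases 39751949 to 40033704 of chromosome 21 on the minus strand. Its ZMYND8 peak of 343 bp, the widest ZMYND8 peak at the TSS of a member, had its midpoint 352 bp downstream of the 5′ end, whereas that of FLAG-ZMYND8, 209 bp wide, was 1662 bp downstream and did not overlap it. The printed stretch of the ZMYND8 peak holds 33 CpGs and no GGAA on either strand. The canonical ERG transcript belongs to a group of starts that begins 163303 bp into the gene, and no peak of either list lay within 3 kb of that first start. In the body of ERG, the longest of the 10 genes at 281756 bp, 1 further FLAG-ZMYND8 peak of the minimum width was found, 79964 bp from the 5′ end. The median protein-coding gene within 1.5 times the length of ERG held 1 ZMYND8 and 3 FLAG-ZMYND8 peaks, against 1 and 2 in ERG.

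ETS1, the closest relative of ETS2 and a factor known from lymphocytes and endothelium, occupies bases 128328656 to 128457453 of chromosome 11 on the minus strand. It had no peak of either list within 3 kb of its 5′ end, where 3 transcripts start within 35 bp, the canonical one among them. The ZMYND8 list held no peak in the gene at all, and its nearest peak lay 303101 bp upstream of the 5′ end. FLAG-ZMYND8 peaks numbered 4 in the gene body, and a pair of them, of 626 and 214 bp, flanked a group of internal starts between 65248 and 65357 bp from the 5′ end, from which 4 protein-coding transcripts begin. The wider of the pair exceeded 94.7% of the FLAG-ZMYND8 list in width. The interval between ETS1 and its neighbour FLI1, another ETS gene, held no ZMYND8 and 2 FLAG-ZMYND8 peaks, both of the minimum width.

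GABPA, the DNA-binding subunit of the GABP complex, which activates many housekeeping and mitochondrial genes, occupies bases 27106881 to 27144771 of chromosome 21 on the plus strand. It was the only member with a ZMYND8 and no FLAG-ZMYND8 peak at the TSS. The ZMYND8 peak had the minimum width of 151 bp and lay 306 bp downstream of the 5′ end in an untranslated exon, 96 bp before the nearest later start. Of the 8 ZMYND8 peaks counted at the 10 genes it alone contained CCGGAAG, the longer core of ETS sites. The site is shown with 10 bases on either side, on the minus strand at chr21:27107207-27107233, with the core in capitals:
GABPA site: ggagccagggCCGGAAGtagagcggag
The 5′ end of ATP5PF, which encodes a subunit of the mitochondrial ATP synthase and runs on the opposite strand, lies 1103 bp downstream of that of GABPA, so the peak stood within 3 kb of both genes. The single FLAG-ZMYND8 peak of GABPA, also of the minimum width, was in an intron 11589 bp from the 5′ end.

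The 3 members on chromosome 21, ETS2, ERG and GABPA, all had a ZMYND8 peak at the TSS, as did 2 of the 7 members elsewhere. This depended on the setting. At the canonical start ERG lost its peak and ETV4, on chromosome 17, gained one. With only peaks wider than the minimum, GABPA lost its peak. Among the 229 protein-coding genes of chromosome 21 the share with a ZMYND8 peak at the TSS was 32.8% and that with a FLAG-ZMYND8 peak 45.4%, against the 34.1 and 58.1% of all chromosomes. The part of the chromosome in this pattern was not tested.

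ELK4, which binds DNA together with serum response factor at the promoters of immediate early genes, occupies bases 205566684 to 205601139 of chromosome 1 on the minus strand. Its TSS lay between a pair of FLAG-ZMYND8 peaks, one of 290 bp at 232 bp upstream (printed above) and one of 311 bp at 702 bp downstream. They covered 601 bp together, and no peak covered the 5′ end itself. Of the 2 further FLAG-ZMYND8 peaks in the gene, both 208 bp wide, 1 had its midpoint in a coding exon and 1 in an untranslated exon. The nearest ZMYND8 peak was 48366 bp upstream.

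ETV4 and ETV5 belong to the PEA3 group, activators that respond to growth factor signalling through ERK. ETV4 occupies bases 41605212 to 41656988 of chromosome 17, and ETV5 bases 185764103 to 185828107 of chromosome 3, both on the minus strand. At the annotated 5′ end the pair differed, since ETV4 had no peak there, while at ETV5 a ZMYND8 peak 199 bp wide lay 2117 bp downstream and one of FLAG-ZMYND8, 167 bp wide, 755 bp downstream. Within the gene the order was the opposite, with 15 FLAG-ZMYND8 peaks in ETV4 and 1 in ETV5.

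The 5′ end of ETV4 belongs to a single transcript, and 9 transcripts, the canonical one among them, start between 33280 and 34218 bp further in. There a ZMYND8 peak of 368 bp, the widest ZMYND8 peak of the 10 genes, had its midpoint 11 bp from the nearest transcript start and shared 160 bp with a FLAG-ZMYND8 peak of 726 bp, which was wider than 96.1% of its list. In all, 6 FLAG-ZMYND8 peaks lay within 3 kb of these starts. At 2.90 FLAG-ZMYND8 peaks per 10 kb, ETV4 had the highest density of the 10 genes, ahead of ERF with 2.65. The ERF value rests on 2 peaks in 7560 bp, both also counted at its TSS. Counting only peaks wider than the minimum, ETV4 held 6 and ERF kept its 2, so ERF then had the higher density. The 10 genes together had 0.508 FLAG-ZMYND8 peaks per 10 kb and all protein-coding genes 0.336, but ETV4 alone held 15 of the 46 peaks in the 10 genes. For ZMYND8 the order was the opposite, with 0.066 per 10 kb in the 10 genes and 0.078 in all. Of the 15 FLAG-ZMYND8 peaks in ETV4, 9 had the minimum width, against a median of 2 peaks of any width in genes within 1.5 times its length.

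In ETV5 the canonical transcript belongs to a group of 6 starts 1229 to 1768 bp from the 5′ end, and the midpoint of the FLAG-ZMYND8 peak lay before this group and that of the ZMYND8 peak after it. These peaks did not overlap. The remaining length of ETV5 held no peak of either list, although 7 groups of starts are annotated in the gene.

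ERF, the repressor of the group, occupies bases 42751721 to 42759280 of chromosome 19 on the minus strand and is the shortest of the 10 genes at 7560 bp. It had no ZMYND8 peak. FLAG-ZMYND8 peaks of 1111, 226 and 256 bp lay 2358 and 1429 bp downstream and 1929 bp upstream of the 5′ end and covered 1593 bp, more than at 97.0% of protein-coding genes. Within 1 kb of the 5′ end, however, they covered 0 bp. The peak of 1111 bp ranked 818 by width in its list and lay in an intron. The 5′ end of the protein-coding gene ENSG00000268643 lies 4 bp upstream of that of ERF on the same strand, so these peaks stood at both genes. The nearest ZMYND8 peak, 14247 bp upstream of ERF, lay inside CIC, the gene of a repressor of the PEA3 group, which was on the list of ETS regulators examined below.

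ELF1 and ELF2 encode related factors with roles in blood cells, ELF1 at bases 41506060 to 41635576 of chromosome 13 and ELF2 at bases 139949266 to 140098372 of chromosome 4, both on the minus strand. Both were among the members with the most FLAG-ZMYND8 at the TSS. At ELF1 a FLAG-ZMYND8 peak of 920 bp covered the 5′ end, with its midpoint 89 bp downstream, and a peak of 516 bp followed at 1211 bp. The 5′ end of WBP4, which runs on the opposite strand, lies 69 bp upstream of that of ELF1, so the wider peak covered both. ELF1 had no ZMYND8 peak, the nearest being 132769 bp upstream, and no peak of either list lay within 3 kb of the start of its canonical transcript, 42124 bp into the gene.

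At ELF2, 7 FLAG-ZMYND8 peaks lay within 3 kb of the 5′ end, 5 of them upstream. They covered 2018 bp, the highest value of the 10 genes and more than at 98.6% of protein-coding genes. This lead depended on the setting. Of the 7 peaks, 3 were wider than the minimum, covering 1350 bp, fewer than the 1593 bp at ERF and 1436 bp at ELF1. Within 1 kb ELF1 had 968 bp and ELF2 908 bp, and within 500 bp they had 872 and 440 bp. ELF2 stayed highest within 5 kb and at the canonical or any transcript start. A long noncoding RNA gene on the opposite strand starts 238 bp upstream of ELF2, so all 7 peaks stood within 3 kb of both starts. A single ZMYND8 peak of 204 bp lay 1000 bp upstream and shared 53 bp with a FLAG-ZMYND8 peak of 515 bp. The widest FLAG-ZMYND8 peak of the 10 genes, 1170 bp and ranked 711 in its list, stood in ELF2 at a group of internal starts 92722 to 92994 bp from the 5′ end, from which 4 protein-coding transcripts begin, with its midpoint 168 bp from the nearest start. No ZMYND8 peak lay in the ELF2 gene body.

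**Figure D2:**
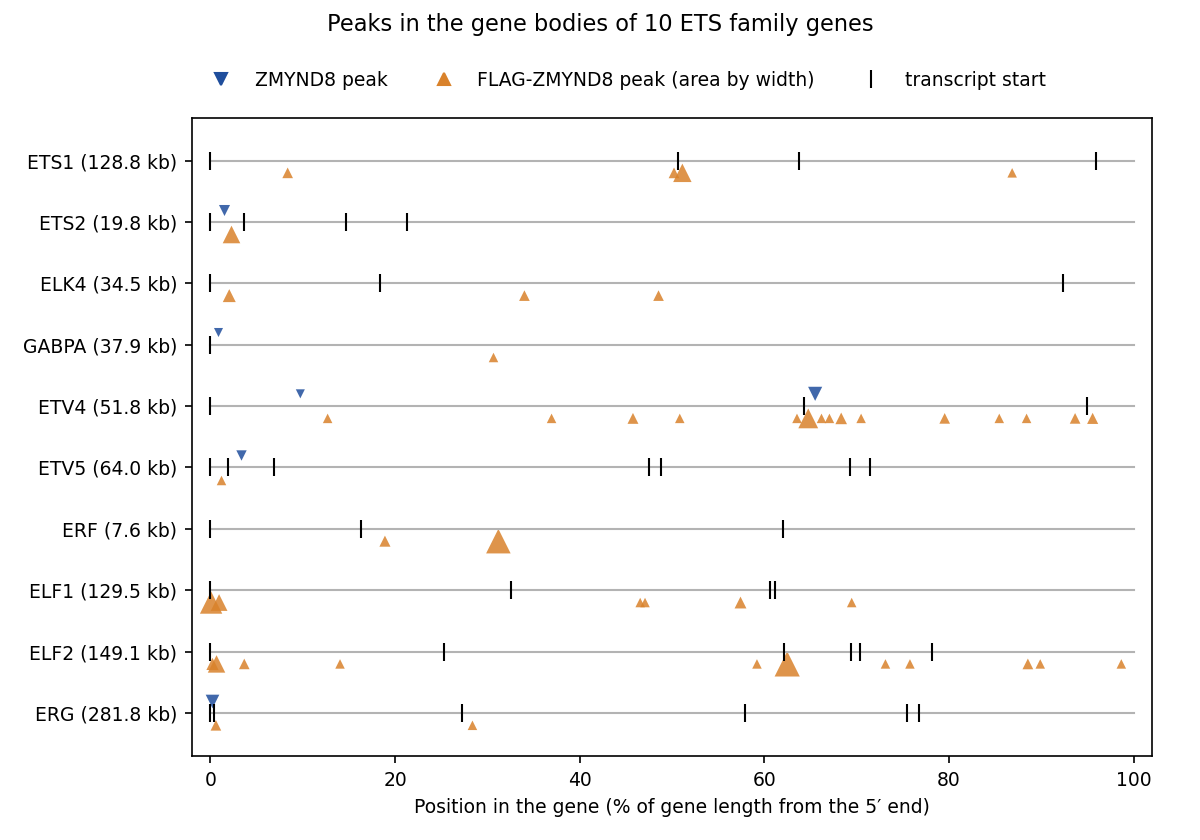
Peaks with a midpoint inside each gene, by position as a percentage of gene length from the 5′ end (x axis), with the area of a triangle in proportion to the width of the peak and the first start of each group of transcripts as a tick. The wide FLAG-ZMYND8 peaks in the interior of ETS1, ETV4 and ELF2 sit at internal starts, and 15 of the 46 FLAG-ZMYND8 peaks are in ETV4.

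Over the gene bodies, 6 ZMYND8 and 46 FLAG-ZMYND8 midpoints were counted. Every one of the 10 genes had a FLAG-ZMYND8 peak in its body, against 64.8% of protein-coding genes, and 5 had a ZMYND8 peak there, against 37.5%. Gene length differs between these sets, with a median of 57891 bp for the 10 genes and 27256.5 bp for all, so the share of genes is not comparable without it. Counted once per gene with those upstream, there were 8 ZMYND8 and 53 FLAG-ZMYND8 peaks, of which 3 and 26 had the minimum width. By the annotation at the midpoint, 41 of the 53 FLAG-ZMYND8 peaks were intronic, 3 lay in coding exons, 2 in untranslated exons and 7 upstream of the gene. Of the 8 ZMYND8 peaks, 3 were intronic, 3 lay in untranslated exons and 2 upstream.

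Sharing between the lists was counted as an overlap of at least 1 bp. Of the 8 ZMYND8 peaks 3 overlapped a FLAG-ZMYND8 peak, at ETS2, ETV4 and ELF2, and in the whole list 40.0% did. In the other direction 3 of 53 FLAG-ZMYND8 peaks had a ZMYND8 partner, against 10.7% of that list. The 3 overlaps measured 225, 160 and 53 bp. At ERG, ETV5 and GABPA the ZMYND8 peak had no partner, although ERG and ETV5 had a FLAG-ZMYND8 peak elsewhere in the same window.

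Counted at any annotated transcript start in place of the 5′ end, 6 of the 10 genes had ZMYND8, against 40.2% of protein-coding genes, and 9 had FLAG-ZMYND8, against 65.0%. The additions were ETS1 for FLAG-ZMYND8 and ETV4 for both. At the start of the canonical transcript the counts were 5 against 35.2% and 6 against 59.6%.

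The starts of the members differed in CpG content. Transcript starts no more than 500 bp apart were joined, which gave 41 groups of starts in the 10 genes, and the ratio of observed to expected CpG was taken over the 1 kb around the first start of each group. A ratio of at least 0.6, a common mark of CpG islands applied here after the values were seen, was reached by 14 groups, and each of the 10 genes had at least 1 of these. All 14 had a peak of at least one list within 3 kb, 13 a FLAG-ZMYND8 and 8 a ZMYND8 peak, GABPA being the one without FLAG-ZMYND8. Some of the 14 share the same peaks, since neighbouring groups of ETS2, ERG and ERF lie within 3 kb of each other. Of the other 27 groups, 5 had a peak within 3 kb, and 4 of these lay within 6 kb of a CpG-rich start of the same gene. All protein-coding genes were counted once each, at the 5′ end, and not by group of starts. Of the 12002 TSSs with a ratio of at least 0.6, 83.4% had a peak of either list, 77.2% FLAG-ZMYND8 and 48.1% ZMYND8. Of the 8096 others, 32.2% had a peak of either list.

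The empty TSSs of ETS1 and ETV4 had ratios of 0.24 and 0.18, and the internal groups that include 4 starts of ETS1 and 9 of ETV4, with peaks, had 0.92 and 0.78. A further internal start of ETV4, 49186 bp from the 5′ end, had 2 FLAG-ZMYND8 peaks within 3 kb and a ratio of 0.32. At ELF1 the ratio was 0.84 at the 5′ end, which had the peaks, and 0.17 at the canonical start, which had none. At ERG it was 0.83 at the 5′ end and 0.37 at the canonical start, in the same order. The members with FLAG-ZMYND8 alone at the TSS, ELK4, ERF and ELF1, had ratios of 0.94, 0.75 and 0.84, beside 0.68 at ETS2, 0.83 at ERG and 0.88 at ELF2, which had both. ETV5, with peaks of both lists, had 0.51 at its 5′ end and 0.84 at the group with its canonical start. The part of CpG content in the presence of peaks was not tested.

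**Figure D3:**
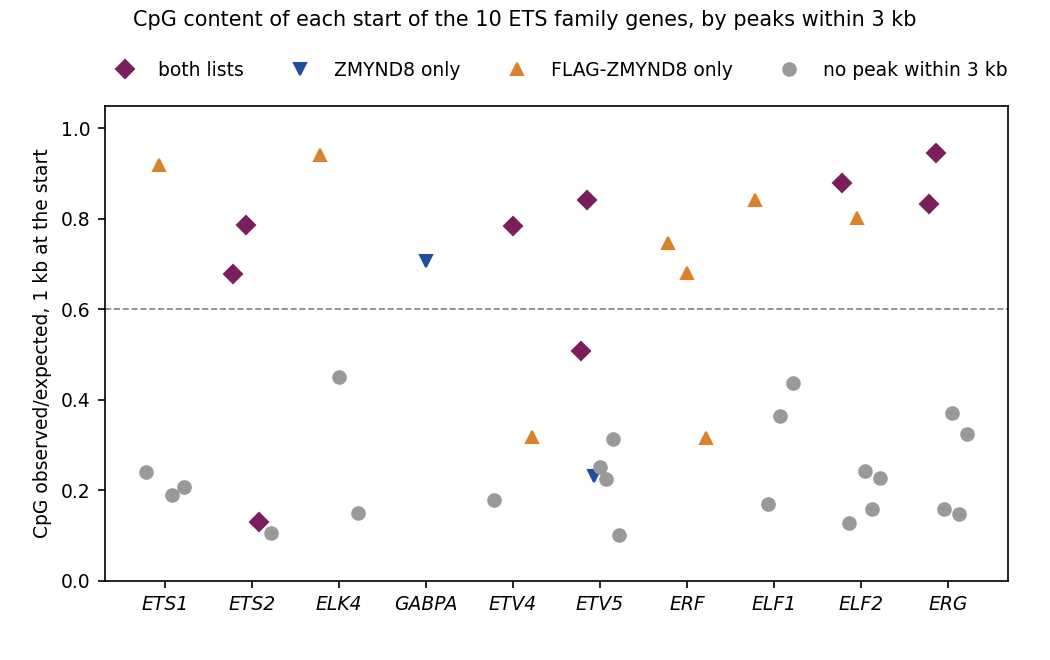
Ratio of observed to expected CpG in the 1 kb around each group of transcript starts (y axis), by gene (x axis), with the symbol giving which lists had a peak midpoint within 3 kb and a dashed line at 0.6. All 14 starts above the line have a peak, and 22 of the 27 below it have none.

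The 17 FLAG-ZMYND8 peaks at the TSSs had a median GC content of 62.5%, the 36 elsewhere in the genes 56.1%, and the whole list 58.1%. The 6 ZMYND8 peaks at the TSSs had a median of 64.2%, against 60.9% in the whole list.

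The ETS core itself was common everywhere. GGAA was searched on both strands, and it occurred in the central 167 bp of 36 of the 53 FLAG-ZMYND8 peaks, a share of 67.9% against 71.8% in the whole list. In the central 151 bp of the ZMYND8 peaks it occurred in 5 of 8, against 75.5% in the whole list. CCGGAAG, which contains GGAA and was also searched on both strands, occurred in the centre of 1 peak of each list, 3.14% of all ZMYND8 and 1.88% of all FLAG-ZMYND8 peaks having it in their centre. These were the GABPA peak above and the FLAG-ZMYND8 peak of ETS2, where the site lies 443 bp downstream of the 5′ end in the printed stretch. In promoters of 300 bp, from 250 bp before to 50 bp after the 5′ end, CCGGAAG was found at 1 of the 10 genes, ELK4, and at 11.8% of all protein-coding genes. ELF2 was the one member with no GGAA on either strand of its promoter, whereas 94.9% of all promoters held it. A match describes the letters only and shows no binding.

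The likeness of ETS2 to other genes was measured as the bases covered at the same distance from the TSS in the same list, divided by the bases covered in either gene (Jaccard index, 1 for identical cover). Among the other members it was 0.20 for ELF1, 0.18 for ERG and 0.16 for GABPA, and it was 0 for ETS1, ETV4 and ERF. An index above 0 was found for 6 of the 9 other members and for 8532 of the 20098 genes, ETS2 itself included, and ELF1 ranked 3202. The most similar genes were RABGAP1 with 0.75, PRKCI with 0.71 and EXOC5 with 0.67. The index rests on 1 list for each target and is a description.

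Of the other 18 ETS family genes, 6 had a ZMYND8 and 10 a FLAG-ZMYND8 peak within 3 kb of the TSS, 4 had both and 6 had neither. These shares of 33.3 and 55.6% lay near the background of 34.1 and 58.1%. The most ZMYND8 bases were covered at ETV3, a repressor related to ERF, with 633 bp, ELF4 with 360 bp and ETV6, a repressor needed in blood stem cells, with 234 bp. ETV3 thus exceeded ETS2, whose value was 376 bp. In the FLAG-ZMYND8 list the most bases were covered at ETV2 with 686 bp, ELF4 with 648 bp and ELK3 with 493 bp, each of them fewer than at ELF2, ERF or ELF1. The 6 without a peak at the TSS were FLI1, ETV3L, ETV7, ELF5, EHF and SPIC. Several of these are known from epithelial or blood cells, and their expression in HEK293 was not measured here.

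Among 10 partners and regulators of ETS proteins, 4 had a ZMYND8 and 8 a FLAG-ZMYND8 peak at the TSS, against 34.1 and 58.1% of all protein-coding genes. FLAG-ZMYND8 peaks covered 2035 bp at GABPB2 and 1307 bp at GABPB1, which encode the partners of GABPA, and GABPA itself had none. At CBFB, a partner of RUNX factors, they covered 1948 bp, and at SRF, the partner of ELK4, 1409 bp, both more than at GABPB1. None of these 4 genes had a ZMYND8 peak at the TSS. The ZMYND8 list covered most at COP1, an ubiquitin ligase subunit that targets PEA3 factors, with 562 bp, EP300 with 330 bp and CREBBP with 220 bp, the last 2 encoding acetyltransferases that act as coactivators. RUNX1 alone of the 10 had no peak of either list within 3 kb of its TSS. Its gene body of 1216868 bp held 5 ZMYND8 and 25 FLAG-ZMYND8 peaks. Per 10 kb these were 0.041 and 0.205, against 0.078 and 0.336 for all protein-coding genes.

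Of 12 genes of the ERK cascade, ZMYND8 peaks stood at the TSS of 7 and FLAG-ZMYND8 peaks at that of 11, these including the 7. These shares of 58.3 and 91.7% stand beside 34.1 and 58.1% of all protein-coding genes, and 58.3% had both against 29.4%. The ZMYND8 list covered 732 bp at MAPK3, which encodes an ERK kinase, and 572 bp at SOS1, the RAS exchange factor. The FLAG-ZMYND8 list covered 804 bp at BRAF, a kinase of the cascade, and 666 bp at SOS1. GRB2 had no peak at the TSS in either list. With 10 and 12 genes in these lists, nothing is read from the differences to the background.

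**Figure D4:**
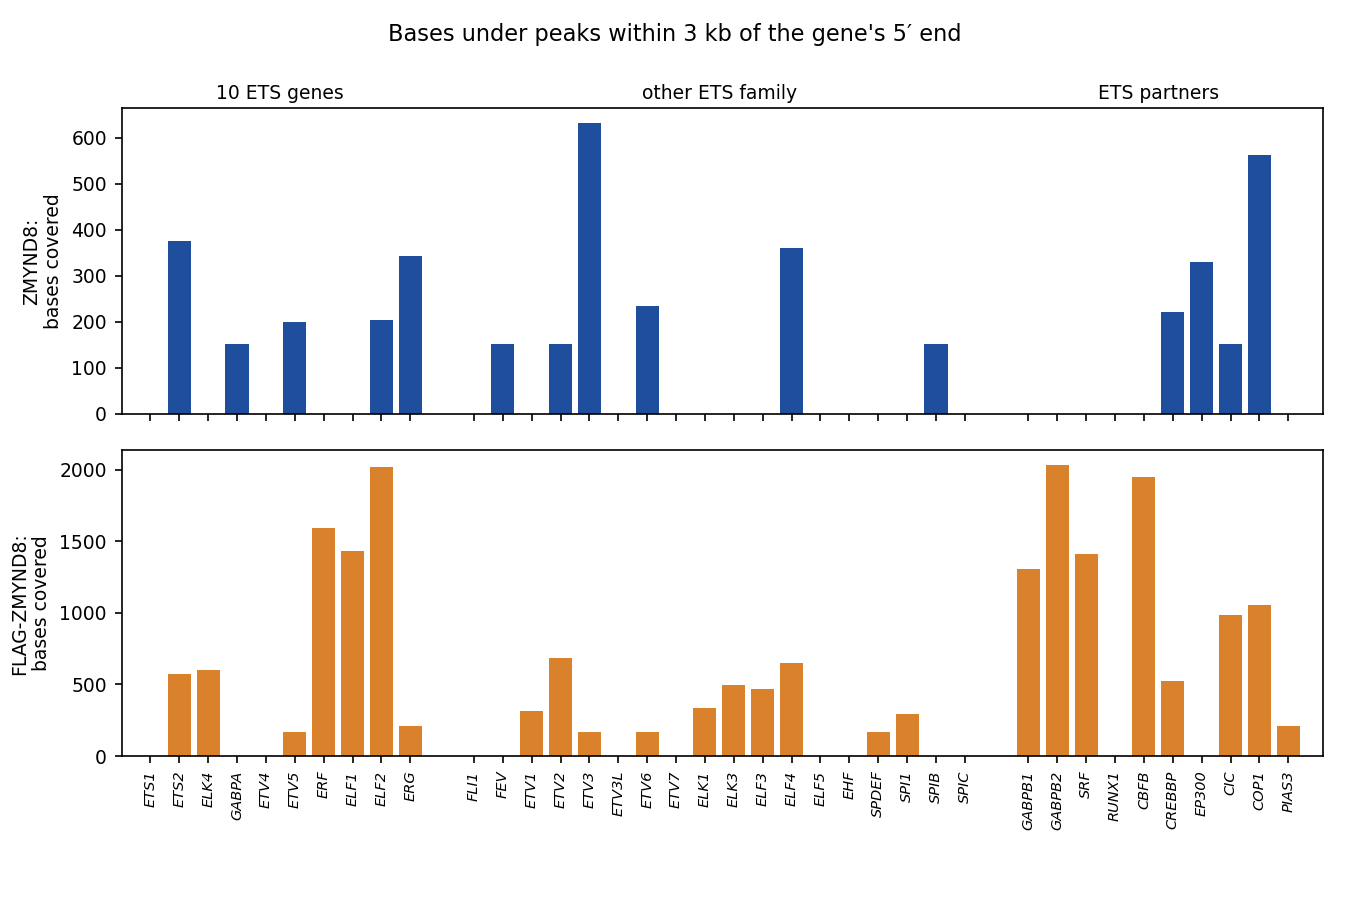
Bases under ZMYND8 (upper panel) and FLAG-ZMYND8 peaks (lower panel) within 3 kb of the 5′ end of each gene (y axes, bp), for the 10 members, the other 18 ETS genes, and 10 partners and regulators (x axis). ETS2 has the highest ZMYND8 value of the 10 members at 376 bp, whereas ELF2, ERF and ELF1 lead the members in FLAG-ZMYND8 with 2018, 1593 and 1436 bp. Peaks at internal starts are not counted.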

How the data were processed

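Per the study's methods, BWA-MEM placed the reads on hg19 and HOMER made the profiles, and the authors deposited 1 peak list per target in BED layout. Peak-calling settings and how the replicates were combined are not given in the sources used here. The positions fit the GRCh37 chromosome lengths. The deposited score column is 1 in every row and ranks nothing, so width was used as size. Genes and transcripts came from GENCODE release 44 on GRCh37. Peaks were assigned by midpoint, to a TSS up to 3 kb from the 5′ end of the gene and to a gene body inside it, and were called shared on an overlap of at least 1 bp. As all scores are equal, the stricter threshold tried was a width above the minimum of the list. Covered bases were counted within the window whatever the midpoint. No test was made, since each target has 1 list without replicates, and the depth is unknown.

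The members and gene lists were chosen with earlier results of these data known. All 10 members were named. In the other lists, the 3 genes with the most covered bases per peak list and those without a peak were named, with protein-coding neighbours whose TSS lay within 3 kb of that of a member, and the 3 members and 3 other genes most like ETS2. GABPB1 and CIC were named in addition after their values were seen. Some genes of the ERK list that the rule would name are not reported here. The window, coverage and overlap counts were tested on simulated data for 1000 genes. Analyses used Python 3.11.15, numpy 2.4.6, pandas 2.3.3 and matplotlib 3.10.9.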

Additional observations from a re-analysis of the deposited data

How the results depend on the processing

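No paired analysis was possible because each list holds its replicates unseparated, and for the same reason none could be left out. Of 10 members, those with a ZMYND8 peak numbered 5 and ranged from 4 to 6 under other settings except within 500 bp (3). Those with FLAG-ZMYND8 numbered 7 and ranged from 5 to 9 except within 500 bp (4). Members with both fell from 4 to 2 within 1 kb and 1 within 500 bp. With any transcript start in place of the 5′ end, ETS1 gained FLAG-ZMYND8 and ETV4 both lists. With the canonical start, chosen after the data were seen, ERG and ELF1 lost their peaks and ETV4 again gained both. FLAG-ZMYND8 peaks then covered 1476 bp at ETV4, 0 bp at ELF1 and 2018 bp at ELF2. At any transcript start they covered 2081 bp at ETV4, 840 bp at ETS1 and 570 bp at ETS2, with ELF2 highest at 3188 bp.

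Over all protein-coding genes, ZMYND8 peaks were found at 28.5% within 1 kb, 21.5% within 500 bp, 36.7% within 5 kb, 40.2% with any transcript start, 35.2% with the canonical start and 23.0% with peaks wider than the minimum. For FLAG-ZMYND8 these were 49.3, 37.6, 61.8, 65.0, 59.6 and 46.3%. Peaks wider than the minimum left 24 of the 46 FLAG-ZMYND8 peaks in the gene bodies. At the TSSs 2 peaks of each list had a partner, 0 with a reciprocal overlap of 50% and 1 with midpoints within 200 bp. Of 186 values of single genes under an alternative that were above 0 at first, 133 stayed within 1.5 times, 52 fell and 1 rose beyond it. Of 114 that were 0, and so could not fall, 11 rose. Without depth, an absent peak cannot be told from one missed.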
